A study of Mus musculus with 8 samples.

Results

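The 8 genes described here, Sox10, Foxd3, Erbb3, Fabp7, Gfra3, Cdh19, Ngfr and Dhh, are known from Schwann cells and from the neural crest cells that become glia. They were taken by name: each was read from the array probe sets annotated to its symbol alone, which gave 14 of the 45101 probe sets, and the brightest probe set stood for the gene among the 18194 genes measured. RNA came from the mandibular arch of C57BL/6J mouse embryos at embryonic day 11.5, on 1 Affymetrix array per sample. The 4 controls were Alk5 fl/fl, and the 4 mutants were Alk5 fl/fl with Wnt1-Cre, so every embryo carried the floxed alleles and the mutants alone carried the driver. Alk5 is a type I TGF-beta receptor, encoded by Tgfbr1, and Wnt1-Cre acts in the neural crest and its descendants, the peripheral glia included, while the arch keeps cells of other origins. The labels name no Cre in the controls, so driver and deletion cannot be told apart. They also do not say that the numbered samples came from different embryos or litters, so p-values here cover the spread among the arrays only, which may be technical.

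Schwann cell precursors leave the neural crest and travel along growing nerves, which in the mandibular arch are branches of the trigeminal nerve. The transcription factor Sox10 is required for them, and they survive on neuregulin that axons present to the receptor ErbB3. They can still turn into pigment cells and other types, and Foxd3 is known to hold back the pigment fate. Like any whole-tissue measurement, these values cannot tell apart fewer glial cells and less RNA of a gene per cell.

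Of the 8 genes, 1 fell in the mutants, 0 rose and 7 did not pass an adjusted p of 0.05 in limma's test over all 18194 genes. The gene that fell was Foxd3, to 73.2% of the control level. Over all genes 2.14% passed, of which falls made up 1.31% of genes and rises 0.835%. Rises outnumbered falls when control 1, 2 or 3 or mutant 3 or 4 was left out, for example 85 against 66 without control 1. Cdh19 had the biggest estimated difference of the 8, with mutants at 49.9% of the control level, and it did not pass (adjusted p = 0.0959). Fold changes were below 0 for 6 of the 8 genes, where 52% of all genes were below 0, and the median of the 8 was -0.19 against -0.01 over all genes. With other processing or 1 array left out, this median ran from -0.34 (without control 4) to -0.06 (mean of each gene's probe sets). Where all 8 were measured, 5 to 7 of them were then below 0. Without control 4 Foxd3 and Cdh19 both passed, and without any other single array 0 of the 8 did. More genes passed without control 4 in general: 509 of all genes, with 357 falls, against 390 with 238 falls on all arrays.

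**Figure D1:**
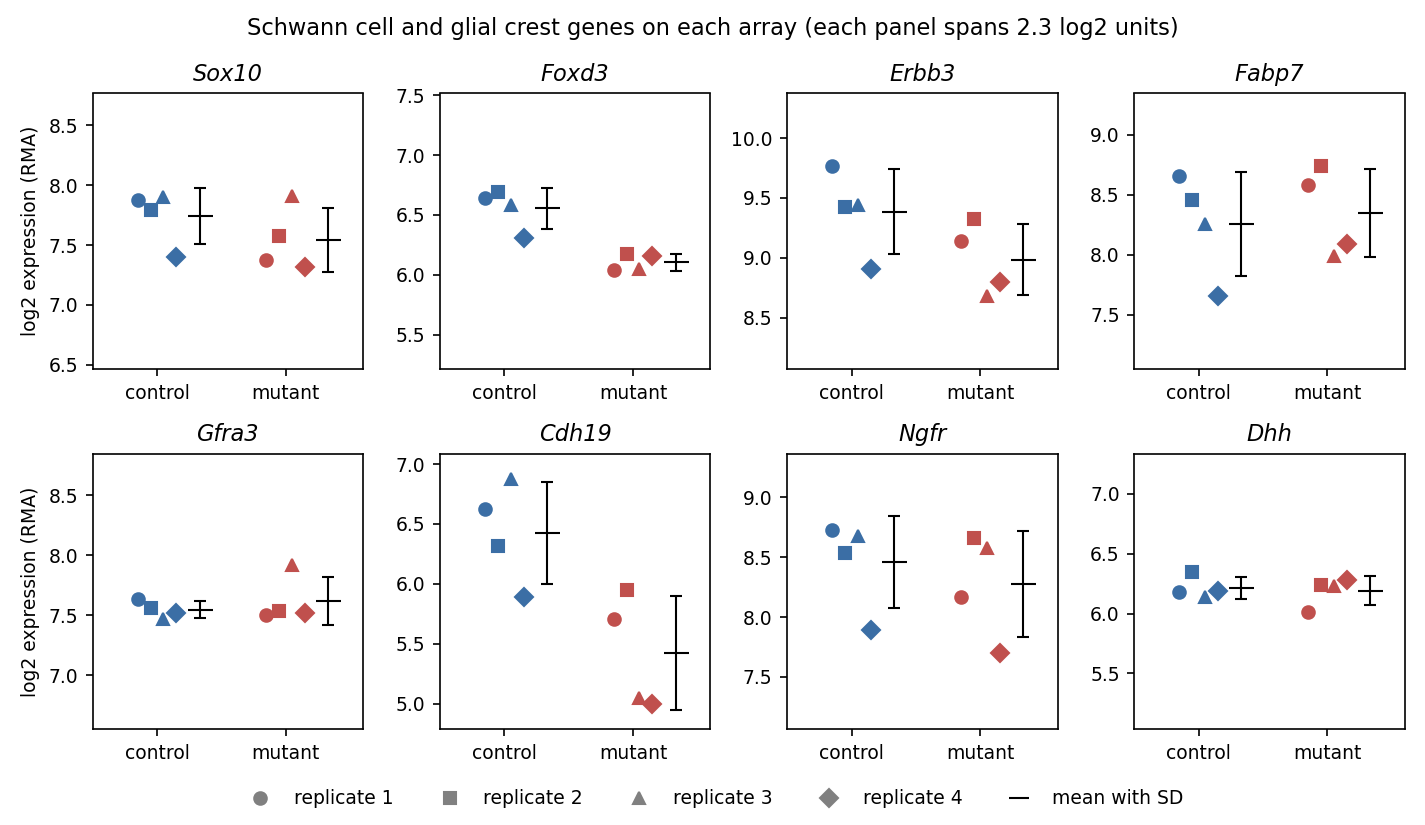
Log2 expression of the 8 genes on each array, with controls in blue and mutants in red, the replicate number as the symbol, and the group mean with its SD as a black bar. All 4 mutants lie below all 4 controls for Foxd3, the groups touch only through control 4 and mutant 2 for Cdh19, and they overlap for the other 6 genes.

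Tgfbr1 itself, the targeted gene, was not lower on its brightest probe set (12.79 in controls and 12.98 in mutants, limma adjusted p = 0.232), and whether that probe set lies outside the deleted part is not known here. Mutant 3 stood apart from the other arrays, with an SD of 2.42 over all probe sets against 2.52 to 2.56 elsewhere. Its median over all probe sets was 6.42, against 6.28 to 6.32 elsewhere. It was the lowest mutant for 51.2% of genes and the highest for 32.1%. The array number limits the precision of every value. Of 8 markers of arch mesenchyme, 6 were brighter than the median gene. The mean log2 value over the 8 was 10.42 to 10.46 in controls and 10.24 to 10.37 in mutants.

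Foxd3, a forkhead factor of early neural crest and of crest cells kept out of the pigment lineage, was measured by a single probe set. Its log2 values in controls 1 to 4 were 6.64, 6.69, 6.58 and 6.31. In mutants 1 to 4 they were 6.04, 6.18, 6.05 and 6.16. The 4 mutants lay close together and below every control, and control 4 was the control nearest to them. The log2 fold change was -0.45 ± 0.0933 (SE, n = 4 and 4), with a 95% interval of -0.66 to -0.24 (adjusted p = 0.0424 in limma). A two-sided exact permutation of the group labels gave p = 0.0286, the lowest value possible with 70 relabelings. Groups that do not overlap in this direction were found for 7.02% of all genes. The Foxd3 call was narrow. It was lost without control 1, 2 or 3 or any 1 mutant, with adjusted p-values of 0.0509 to 0.156, and over all probe sets (adjusted p = 0.0714). The probe set was of middling brightness, with 50% of all probe sets below it. Whether the RMA method compresses differences in this range was not tested. No detection calls were used, so the values are the arrays' signal and not a certain Foxd3 level.

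The promoter of Foxd3 is shown because it is the member that fell, beside that of Fabp7, which did not pass. Both are the 250 bases before the gene start from RefSeq (GRCm38.p6), Foxd3 at chr4:99656049-99656298 and Fabp7 at chr10:57784673-57784922, each on the plus strand and written from 5′ to 3′. Capitals mark TGACGTCA, the cAMP response element, and CACGTG, an E-box.
Foxd3: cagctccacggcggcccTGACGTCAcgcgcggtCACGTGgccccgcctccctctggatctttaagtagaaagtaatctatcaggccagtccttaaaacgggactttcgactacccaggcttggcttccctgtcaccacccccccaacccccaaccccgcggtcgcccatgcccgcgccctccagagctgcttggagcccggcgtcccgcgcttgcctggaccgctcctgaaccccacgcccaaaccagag
Fabp7: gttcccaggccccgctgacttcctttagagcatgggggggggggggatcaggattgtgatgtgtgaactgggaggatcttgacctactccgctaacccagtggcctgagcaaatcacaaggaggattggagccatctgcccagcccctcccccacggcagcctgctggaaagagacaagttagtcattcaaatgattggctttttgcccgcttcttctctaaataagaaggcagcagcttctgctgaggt
These 2 motifs were chosen after the Foxd3 sequence was seen, and on either strand they occur in 1.55% and 6.02% of the 32851 promoter windows of this length. Neither lies in the Fabp7 window. Of the motifs chosen earlier, the SoxE letters ACAAAG (16.5% of windows) and ACAATG (10.7%), the Smad palindrome GTCTAGAC (0.167%) and the AP-2 motif GCCNNNGGC (13.7%) occur in neither sequence, nor in the windows of Ngfr and Dhh. A match is a description of the letters and not of binding.

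Sox10, the factor that peripheral glia and pigment cells require throughout, had 3 probe sets. On the brightest the controls read 7.88, 7.79, 7.90 and 7.40. The mutants read 7.37, 7.57, 7.91 and 7.32. Control 4 sat with the lower mutants and mutant 3 with the upper controls, so the groups overlapped. The log2 fold change was -0.20 ± 0.152 (SE; 95% interval -0.54 to 0.14), which did not pass (limma adjusted p = 0.651). The interval runs from 68.8% to 110.5% of the control level, so a modest loss of Sox10 RNA was not detectable with these arrays. The 2 dimmer probe sets were at 0.05 each, the opposite sign (limma adjusted p = 0.908 and 0.933 over all probe sets).

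Erbb3, the neuregulin receptor on which Schwann cell precursors depend, read 9.76, 9.42, 9.44 and 8.91 in controls. The mutants read 9.14, 9.32, 8.68 and 8.80. The upper 3 controls were above every mutant, and control 4 lay among the mutants. The mean level in mutants was 75.9% of the control level, with a 95% interval of 56.3% to 102% (log2 fold change -0.40 ± 0.192, limma adjusted p = 0.416). Without control 4 the log2 fold change was -0.56 and still did not pass (adjusted p = 0.155). A far dimmer probe set was at 0.13, with mutant 3 at 6.51 and the other 7 arrays between 5.64 and 6.02.

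Ngfr, the low-affinity neurotrophin receptor found on migrating crest and Schwann cells, read 8.73, 8.54, 8.68 and 7.89 in controls and 8.17, 8.66, 8.57 and 7.70 in mutants. Both groups had an array well below the rest, control 4 and mutant 4. The difference of -0.18 ± 0.239 (log2 fold change ± SE) was smaller than the SD of either group (0.387 in controls and 0.441 in mutants), and did not pass (limma adjusted p = 0.791). Its other 2 probe sets were dimmer, and the larger of their differences was -0.04.

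Gfra3 encodes the co-receptor that binds artemin and signals through Ret. The controls spanned 7.47 to 7.63, and mutants 1, 2 and 4 spanned 7.50 to 7.54. Mutant 3 alone was higher, at 7.92. The log2 fold change of 0.07 ± 0.102 (SE) did not pass (limma adjusted p = 0.804) and became -0.03 without mutant 3. Of the 8 genes Gfra3 had the smallest SD in controls, 0.069, and its 95% interval allows between 89.8% and 124% of the control level.

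Cdh19, a cadherin known from Schwann cell precursors, had the widest separation of means. The control values were 6.63, 6.32, 6.87 and 5.89. The mutant values were 5.70, 5.95, 5.04 and 5.0. Mutant 2 was just above control 4, and all other mutants were below all controls, with mutants 3 and 4 lowest. The means were 6.43 ± 0.426 and 5.42 ± 0.476 (n = 4 each, SD), which gives a log2 fold change of -1.0 ± 0.259 (SE) with a 95% interval of -1.58 to -0.42 (adjusted p = 0.0959 in limma, and p = 0.0571 by two-sided exact permutation). In linear terms the interval is 33.3% to 74.7% of the control level. The difference passed without control 4 (-1.18, adjusted p = 0.0433), with array weights (adjusted p = 0.0396) and when eBayes used an intensity trend and robust variances (adjusted p = 0.0456). Those settings also called more of all genes, 509, 1356 and 578, against 390. It missed over all probe sets (adjusted p = 0.142) and most widely without control 3 (adjusted p = 0.283). Its single probe set was dim, above 43.7% of all probe sets.

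Fabp7, the brain-type fatty acid binding protein of glial precursors, read 8.66, 8.45, 8.26 and 7.65 in controls and 8.58, 8.74, 7.99 and 8.09 in mutants. Mutant 2 was the highest of the 8 arrays and control 4 the lowest, the reverse of the order of means for Foxd3 and Cdh19. The log2 fold change was 0.09 ± 0.233 (SE, limma adjusted p = 0.9), and it changed sign without control 4 (-0.11) and without mutant 2 (-0.04). The 95% interval, 74.3% to 153% of the control level, covers both falls and rises.

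Dhh encodes Desert hedgehog, the Hedgehog ligand that Schwann cells send to the sheath around a nerve. Its controls spanned 6.14 to 6.35 and its mutants 6.02 to 6.28, which overlap, with mutant 1 below every control and control 2 above every mutant. The log2 fold change was -0.02 ± 0.0836 (SE, limma adjusted p = 0.931), and the dimmer probe set was at -0.08. With 48.2% of all probe sets below the brighter one, both were dim. The interval of 86.4% to 112% of the control level covers the arrays' signal and not a certain Dhh level, because no detection calls were used.

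**Figure D2:**
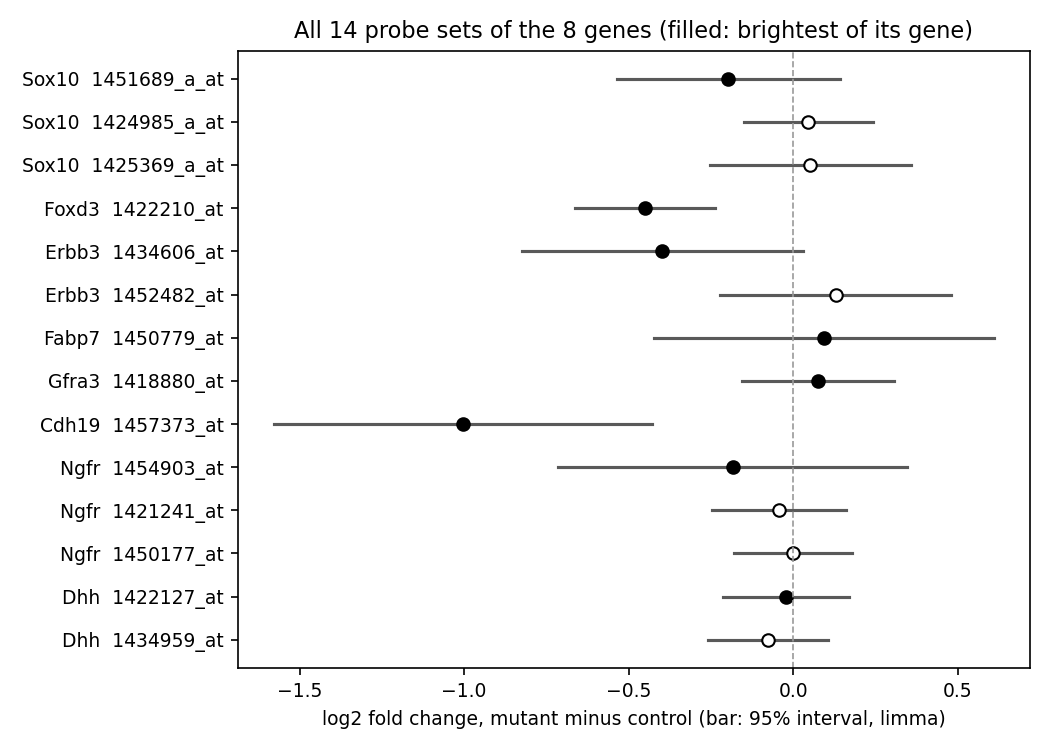
Log2 fold change, mutant minus control, for the 14 probe sets of the 8 genes, with 95% intervals from limma fitted over all probe sets and the brightest probe set of each gene filled. The intervals of Foxd3 and Cdh19 lie below 0, and the dimmer probe sets of Sox10 and Erbb3 lie on the other side of 0 from the brighter ones.

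Whether the change of Foxd3 differed from that of the other members was tested directly, from the per-array difference of 2 log2 values. Foxd3 was already known from these data to be the member that passed, and such a choice favours finding differences. Against Gfra3 and against Dhh the Foxd3 change was lower by 0.53 and 0.43, with no overlap of the groups, but neither passed over the 7 pairs (exact permutation p = 0.0286, adjusted p = 0.1 for both). Against Fabp7 the difference was -0.54 (adjusted p = 0.2), against Ngfr -0.27 (adjusted p = 0.367), against Sox10 -0.25 (adjusted p = 0.2) and against Erbb3 -0.05 (adjusted p = 0.8), by the same exact permutation. The Cdh19 estimate exceeded that of Foxd3 by 0.55 on the log2 scale without passing (exact permutation, adjusted p = 0.24). A p of 0.0286 is the smallest these arrays allow, so after adjustment over 7 pairs a pair could hardly pass, and these tests do not settle whether the members changed by different amounts.

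Variation within a group was as large as the differences between groups for most members. Control 4 was the lowest control for 6 of the 8 genes, all but Gfra3 and Dhh, where it was the lowest control for 27.7% of all genes. Averaged over the 8 genes, controls 1, 2 and 3 lay 0.19, 0.07 and 0.09 above the control mean and control 4 lay at -0.35. The mutants lay at -0.26, -0.05, -0.27 and -0.47, so control 4 was below mutants 1, 2 and 3. Among the mutants, Erbb3 and Fabp7 put the arrays in the same order, with mutant 2 highest and mutant 3 lowest. Sox10 and Gfra3 instead had their highest value of all arrays on mutant 3. Cdh19 was lowest on mutants 3 and 4, and Ngfr on mutant 4.

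**Figure D3:**
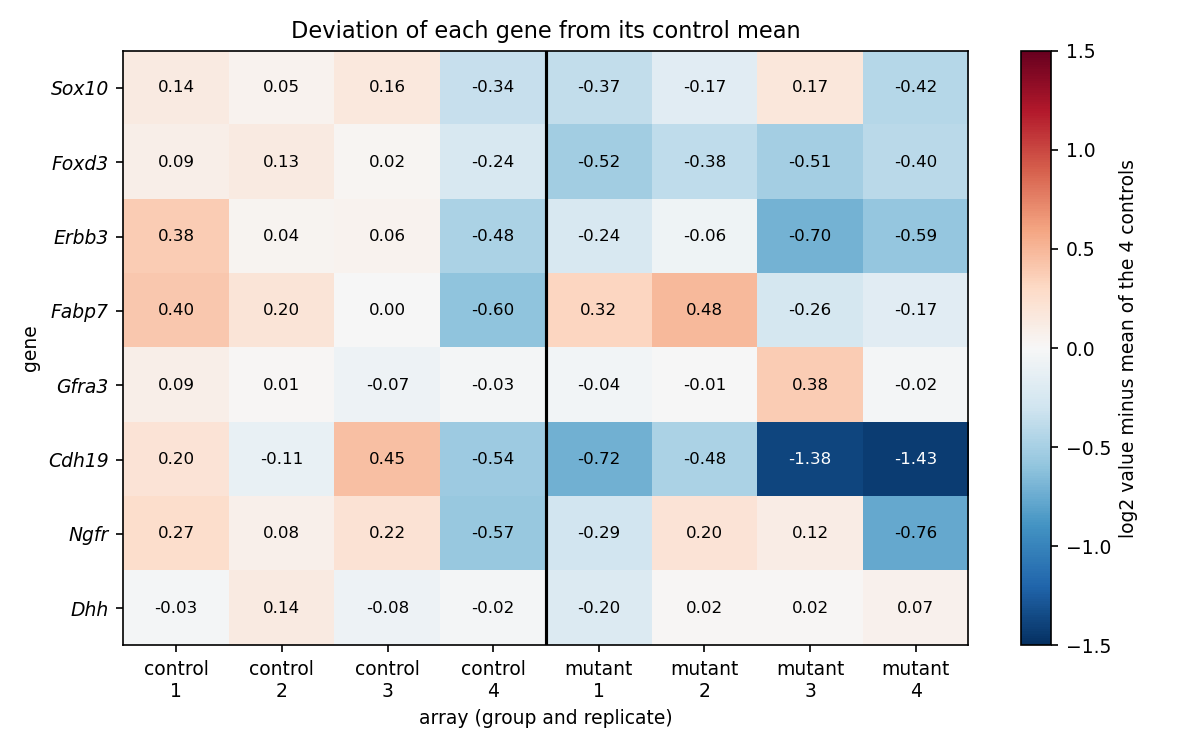
Difference of each array's log2 value from the mean of the 4 controls, for the 8 genes in rows and the 8 arrays in columns, blue where lower and red where higher. Control 4 is lower than the control mean for all 8 genes, by 0.60 for Fabp7 and 0.57 for Ngfr, and Foxd3 is lower on all 4 mutants, from -0.38 to -0.52.

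A list of other Schwann lineage genes was read beside the members. Of its 20 genes, 16 were measured, and 0 rose and 0 fell, with 8 below 0 and a median of 0.01. That median rests mostly on dim genes, as 10 of the 16 were not brighter than the median gene. The 6 brighter ones were Ednrb (-0.86), Pmp22 (-0.57), Sox2 (-0.41), Ncam1 (-0.35), Moxd1 (-0.34) and Itga4 (0.10). Apart from Pmp22 they were named after their values were seen. Over the mean of probe sets Ednrb was at -0.47, Ncam1 at -0.11 and Itga4 at -0.001. The genes of this list with the smallest p were Pmp22, a myelin membrane protein gene also made by mesenchyme, and Mbp, the myelin basic protein gene. Pmp22 read 10.82, 10.84, 10.89 and 10.44 in controls and 10.22, 10.33, 9.84 and 10.32 in mutants, with no overlap (-0.57 ± 0.135 SE, limma adjusted p = 0.0691). Control 4 was again the control nearest to the mutants, and without it Pmp22 passed (adjusted p = 0.0249), where 509 of all genes passed against 390 with it. Mbp was at 0.28 (limma adjusted p = 0.13) on its brightest probe set and at -0.02 over the mean of its 8 probe sets.

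Partners of the member receptors were examined next. Of 7 other neuregulin and ErbB genes 0 passed, with a median of -0.01. The smallest p-values were those of the receptor gene Egfr (-0.48 ± 0.212 SE, limma adjusted p = 0.364, and -0.06 over the mean of its probe sets) and the ligand gene Nrg4 (0.22, adjusted p = 0.403). Of 8 GDNF-family ligands, co-receptors and Ret, 0 passed, with a median of 0.02. Gdnf was at -0.27 (limma adjusted p = 0.235) and the Gfra3 ligand gene Artn at -0.24 (adjusted p = 0.638). Among 5 neurotrophin genes measured beside Ngfr, 1 rose, 0 fell and 4 did not pass. The rise was Ntrk2, the BDNF receptor gene, from 8.78 ± 0.293 to 9.68 ± 0.176 (SD, n = 4 each, limma adjusted p = 0.0186). All 4 mutants were above all 4 controls, but over the mean of its 8 probe sets the difference was 0.30 (adjusted p = 0.103), and the call was lost without control 2 (adjusted p = 0.0614) or control 3 (0.0664).

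Among 11 Hedgehog genes beside Dhh, 1 fell and 0 rose, 10 missed the threshold and the median was -0.08. Gli1, a transcription factor and target of the pathway, went from 8.43 ± 0.0543 to 7.92 ± 0.174 (SD, n = 4 each, limma adjusted p = 0.0258). The mutants were all below the controls. The Gli1 call was lost without control 1, 2 or 3 or mutant 4 (adjusted p from 0.0698 to 0.11).

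Of 15 factors of the neural crest beside Sox10 and Foxd3, 1 fell and 0 rose, 14 missed the threshold and the median was -0.08. For 4 of these 15 all mutants lay below all controls, against 7.02% of all genes. The fall was Pax3, a paired-box factor of early crest, muscle precursors and pigment cells, with controls at 9.54, 10.24, 9.99 and 9.06 and mutants between 7.52 and 7.86 (log2 fold change -2.0 ± 0.222 SE, limma adjusted p = 0.00369). As for Foxd3, control 4 was the lowest control and above every mutant. The SoxE relatives of Sox10 were at -0.08 for Sox8 (limma adjusted p = 0.904) and 0.04 for Sox9 (adjusted p = 0.921), both named after their values were seen. Of 7 genes of the melanocyte lineage, which also needs Sox10, 0 passed, all 7 were above 0 and the median was 0.14. Only 1 of the 7 was brighter than the median gene. The mean log2 value of these 7 genes was 6.27 and 6.23 on mutants 3 and 4, 6.04 and 5.99 on mutants 1 and 2, and 5.96 to 6.01 in controls. Kit, the receptor of pigment precursors that other cells carry too, was at 0.34 (adjusted p = 0.498) and the melanosome gene Pmel at 0.20 (adjusted p = 0.568), or 0.07 without mutant 3.

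Of 13 genes of neurons and their axons, the cells that Schwann cell precursors follow, 1 rose and 1 fell, 11 missed the threshold and the median was -0.16. Tubb3, a tubulin of young neurons, had controls at 8.86, 9.23, 9.09 and 8.08 and mutants between 6.75 and 7.44 (log2 fold change -1.67 ± 0.249 SE, limma adjusted p = 0.0126). The call was lost without control 3 (adjusted p = 0.0519) or mutant 4 (0.0538). Gap43, which growth cones and Schwann cells both make, rose from 9.98 ± 0.0401 to 11.32 ± 0.094 (SD, n = 4 each, limma adjusted p = 1.27e-04), and kept its call without each array in turn. The 2 genes of this list that passed thus went opposite ways. Of the 13 genes 7 were below 0 and 6 above, and only 4 were brighter than the median gene. These 4 were Tubb3, Gap43, Isl1 (-0.16, limma adjusted p = 0.724) and Nefm (-0.34, adjusted p = 0.704). Isl1 and Nefm were named after their values were seen.

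**Figure D4:**
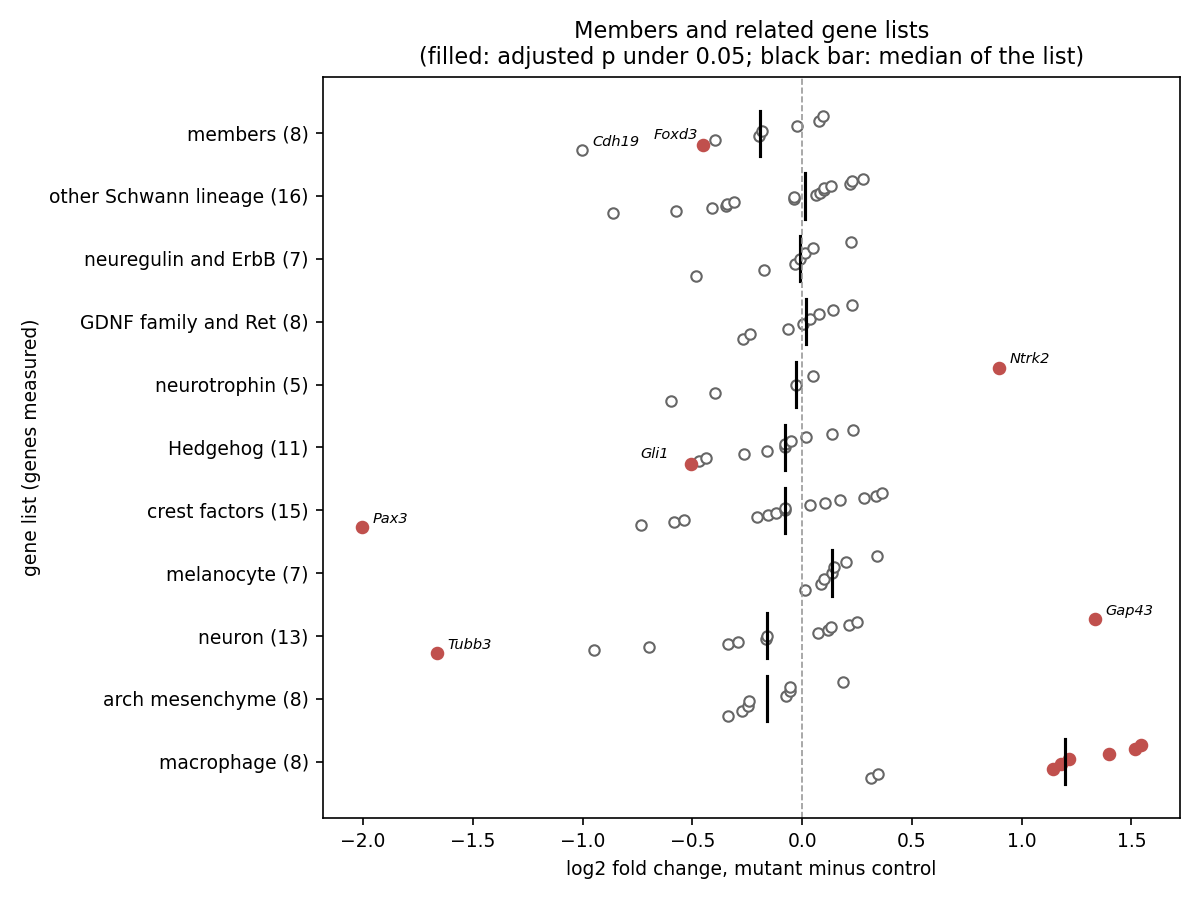
Log2 fold change, mutant minus control, of the 8 members and of the genes of 10 related lists, each circle a gene, filled where the limma adjusted p was under 0.05, with a black bar at the median of the list. The members have a median of -0.19 and the macrophage list lies at 1.20. Medians of the other lists lie between -0.16 (neuron and arch mesenchyme) and 0.14 (melanocyte).

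Markers of other cell types were read on the same arrays. Of 8 macrophage genes 6 rose, among them the complement genes C1qb (1.54), C1qc (1.52) and C1qa (1.40) and the F4/80 gene Adgre1 (1.21). The summed macrophage signal was 10.55 to 10.72 in controls and 11.57 to 11.99 in mutants, as the log2 of summed linear values. Of 8 arch mesenchyme genes 0 passed and 7 were below 0, Prrx1 at -0.34 (limma adjusted p = 0.0753) and Hand2 at -0.27 (adjusted p = 0.219) having the smallest p, and the summed signal was 14.63 to 14.80 in controls and 14.39 to 14.54 in mutants. Of 6 epithelial genes 0 passed, with Epcam at -0.25 and Esrp1 at -0.35. Without mutant 3 these were -0.06 and -0.10, and the mean log2 value of the 6 genes was 8.44 on mutant 3 against 9.08 to 9.41 on the other arrays. Summed over the 8 glial genes, the signal was 10.53 to 11.23 in controls and 10.50 to 11.01 in mutants, which overlap. This sum is carried by the brightest genes, Erbb3, Ngfr and Fabp7 (control means 9.38, 8.46 and 8.26). Foxd3 and Cdh19 (6.56 and 6.43) add little to it. The part of the other cell types in the Foxd3 and Cdh19 values was not tested.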

How the data were processed

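The deposited values are log2 expression per probe set on 8 arrays. The authors made them with RMA, per the submitters' processing notes (version not given in the sources used here), and per the labels' protocols total RNA was column-purified and labelled with biotin. A platform annotation gave 1 symbol to 34958 probe sets, and the brightest of each symbol represented 18194 genes. Groups came from the titles. Mutants were compared with controls with lmFit and eBayes of limma 3.58.1 in R 4.3.3, without covariates, with Benjamini-Hochberg adjustment over all genes, or over all 45101 probe sets where named. Rose and fell are used at an adjusted p under 0.05. All adjusted p-values of single genes are limma's. The steps were tested on simulated data. The members and the 13 lists (129 genes, 120 measured) were chosen with earlier results of these data known, and lists are described by counts and medians without a set test. The text names all members, up to 4 genes of a list past the threshold by size or otherwise the 2 with the smallest p, the 5 genes most like Sox10 and Foxd3, and Tgfbr1. Sox8, Sox9, Ednrb, Sox2, Ncam1, Moxd1, Itga4, Isl1 and Nefm, named outside this rule, were not put through the full set of alternatives. Alternatives covered the replicate number as a block, probe set choice, a filter on dim genes, normalization, variance model, array weights, threshold and each array left out. No detection calls or scan dates were used.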

Additional observations from a re-analysis of the deposited data

Results flagged for a closer look

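Among 84 groups of 4 values examined, 6 held an array far from the other 3, by Dixon's test, which chance alone gives for about 1 group in 20. For Gfra3, mutant 3 read 7.92 and the other mutants 7.50 to 7.54. On the dimmest Ngfr probe set, mutant 3 read 5.54 against 5.30 to 5.34. On the dimmer Dhh probe set, control 1 read 5.94 against 5.78 to 5.80. Among related genes, control 4 was low for Pmp22 (10.44 against 10.82 to 10.89) and for Cdh10 (7.26 against 8.02 to 8.15), and mutant 4 was high for Hand2 (12.16 against 12.04 to 12.05).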

How the results depend on the processing

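The number of members that passed was 1, and it was 0 with the replicate block, over all probe sets and among genes above the median level, where 4 members remained and Foxd3 and Cdh19 were not measured. It was 2 with a trend and robust variance, with array weights and at an adjusted p of 0.10, and 0 to 2 without 1 array. Foxd3 stayed below 0 throughout. With the replicate block and over all probe sets its log2 fold change of -0.45 is unchanged by construction, and it missed the threshold in both. Without 1 array it lay between -0.53 and -0.41. Cdh19 passed with a trend and robust variance (-1.0) and with array weights (-1.0), and lay between -1.18 and -0.85 without 1 array. Fabp7 ranged from -0.11 to 0.23, Gfra3 from -0.026 to 0.11, Ngfr from -0.37 to 0.0090 and Dhh from -0.052 to 0.036 without 1 array, so none of these 4 has a settled direction. Sox10 and Erbb3 kept theirs in 16 of 16 alternatives, but not all of these could change it. With the replicate block, over all probe sets, above the median level and with a trend and robust variance, their values are unchanged by construction. Over the mean of probe sets Sox10 was at -0.033 and Erbb3 at -0.135. Neither passed in any alternative, and the main intervals of both include 0, so their direction is not settled either. Of all genes 390 passed, 620 after quantile normalization, 1356 with array weights, 578 with a trend and robust variance and 664 at an adjusted p of 0.10. Without 1 control the number was 104 (control 3), 109 (control 2), 151 (control 1) or 509 (control 4). Without 1 mutant it was 108 (mutant 4), 198 (mutant 1), 338 (mutant 2) or 618 (mutant 3). Rises and falls were 152 and 238 among the 390, but rises led once control 1 (85 against 66), control 2 (64 against 45), control 3 (60 against 44), mutant 3 (328 against 290) or mutant 4 (68 against 40) was dropped. The labels do not say whether the replicate numbers pair the samples. Deviations of same-numbered samples from their group means had correlations of 0.03, 0.002, -0.12 and 0.41, against -0.33 to 0.28 for differently numbered samples. Deviations within a group sum to 0, so these values depend on each other and do not decide it. With the replicate block 293 genes passed, Gli1 and Cdkn2c not among them (limma adjusted p = 0.0589 and 0.0623).

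Of 36 other named genes, examined under the same alternatives after the data were seen, 13 passed, of which 7 kept the call throughout and 6 lost it at least once, and 9 of the 23 that had not passed did so at least once. Signs changed for 5 others that had not passed: Mbp (-0.021) and Bcl2l1 (0.022) over the mean of probe sets, Dtx3 (0.043) and Mgat1 (0.053) after quantile normalization, and, without 1 array, Mgat1 (-0.063 to 7.4e-05) and Fabp1 (-0.16 to 0.0040). The cause of these shifts was not tested. With 4 arrays a group and probe sets for Foxd3, Cdh19 and Dhh no brighter than about the median, small changes of these genes cannot be resolved.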

Other observations

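Relatives of 2 members were read from the same fit. Among 10 other cadherins 0 passed, 7 were below 0 and the median was -0.22. Cdh11, the cadherin of mesenchyme, was at -0.27 ± 0.072 (SE, limma adjusted p = 0.112) with all 4 mutants below all 4 controls. Cdh10, a cadherin known from the nervous system, was at -0.85 ± 0.312 (adjusted p = 0.26), with controls at 8.02, 8.08, 8.15 and 7.26 and mutants at 7.46, 7.70, 6.62 and 6.34. As for Cdh19, control 4 was the lowest control and mutants 3 and 4 the lowest arrays, but over the mean of its 4 probe sets Cdh10 was at -0.21. Among 6 other fatty acid binding proteins 0 passed. Fabp3, the muscle and heart form, was at 1.09 ± 0.241 (adjusted p = 0.0537), with every mutant above every control, and it passed in 8 of 15 alternatives. Fabp1 had the next smallest p (-0.10, adjusted p = 0.762).

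The genes whose values over the 8 arrays were most like those of Foxd3, among 9097 genes brighter than the median, were Cald1, which encodes an actin-binding protein (Pearson's r = 0.99), the cell cycle inhibitor Cdkn2c (0.98), the matrix proteoglycans Lum (0.98) and Bgn (0.98) and the ligand Wnt5a (0.97). Their log2 fold changes were -0.28, -0.58, -1.61, -0.83 and -0.95, and all but Cald1 passed (limma adjusted p from 0.00574 to 0.0419). Cdkn2c, Lum and Wnt5a each lost the call when single arrays were left out. For Sox10 they were Rflna (0.96), the survival factor gene Bcl2l1 (0.95), the collagen gene Col7a1 (0.94), Dtx3 (0.94) and Mgat1 (0.92), of which 0 passed, with log2 fold changes of -0.26 to -0.02. These coefficients are descriptions over 8 arrays that share the group difference and any array effect, chosen as the highest of all those computed.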
